A study of Homo sapiens with 12 samples.

Results

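The genes described here are the 4 early growth response factors EGR1, EGR2, EGR3 and EGR4, the 3 orphan nuclear receptors NR4A1, NR4A2 and NR4A3, and serum response factor (SRF). They were chosen by gene symbol and are 8 of the 60583 genes in the deposited count tables. The assay was TT-seq: RNA made during a short pulse of 4-thiouridine is fragmented, captured and sequenced, so a count reports transcription in progress over the whole gene, introns included. The 12 libraries came from U2OS, a human osteosarcoma line, and from U2OS-AsiSI, a U2OS derivative with the genotype AsiSI-ER, a restriction nuclease joined to an oestrogen receptor domain. Each line was transfected for 48 hours with a control siRNA (siCtrl) or with an siRNA against INTS11 (siINTS11), the endonuclease subunit of the Integrator complex, giving 4 groups of 3 replicates. U2OS-AsiSI cells of both siRNA groups also had OHT (4-hydroxytamoxifen, which moves AsiSI-ER into the nucleus) for 1 hour, and no OHT is given for the U2OS groups. The cell line, the nuclease and OHT therefore cannot be told apart in any comparison of U2OS-AsiSI with U2OS. The promoter that drives AsiSI-ER, and whether the line is a clone, are not given in the sources used here. The study asked how Integrator bears on elongation by RNA polymerase II.

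EGR and NR4A genes are immediate early genes, transcribed within minutes of a growth factor, serum or stress signal without new protein synthesis. One route to them runs through the ERK kinases to ELK1, ELK3 and ELK4, which sit beside SRF on CArG boxes, and another through cAMP and calcium to CREB bound at cAMP response elements. The EGR proteins are zinc-finger activators, some of them curbed by the corepressors NAB1 and NAB2. The NR4A proteins are nuclear receptors that act without a known hormone, alone or, for some of them, with the retinoid X receptors. Integrator is known to bind at immediate early genes such as EGR1.

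Libraries held 20704611 to 38065726 counts, the lowest being U2OS-AsiSI siINTS11 replicate 2. U2OS libraries had 277, 314 and 286 INTS11 reads with siCtrl and 260, 216 and 225 with siINTS11, and U2OS-AsiSI libraries had 284, 351 and 269 with siCtrl and 258, 212 and 277 with siINTS11. INTS11 fell by 0.42 on the log2 scale in U2OS (SE 0.09, edgeR adjusted p = 6.08e-05), while the value in U2OS-AsiSI was -0.13 (SE 0.08, adjusted p = 0.172), or 0.062 with libraries scaled by their totals alone. An siRNA acts on mature RNA, so nascent reads check the labels only in part. Of 8 osteoblast lineage markers, RUNX2, COL1A1 and SPARC had at least 1929 reads in every library, ALPL had 69 to 345, SP7, COL1A2 and IBSP had 2 to 13, and BGLAP had 0. Their summed level was 769 to 798 CPM (counts per 1000000 of a library's TMM-scaled total) in U2OS siCtrl, 512 to 554 in U2OS siINTS11, 623 to 648 in U2OS-AsiSI siCtrl and 432 to 465 in U2OS-AsiSI siINTS11. The osteoblast sum was thus lower under siINTS11 in both lines, and lower in U2OS-AsiSI than in U2OS under either siRNA. Over all libraries RUNX2 ran from 0.44 to 1.33 CPM per kb of gene, COL1A1 from 4.12 to 6.45 and SPARC from 7.55 to 9.47. The sum therefore need not describe each of the 8 markers. Of 3 blood markers HBB had 0 reads, CD3E 0 to 1 and PTPRC 2 to 7, and the liver marker ALB had 0 to 3. The 2 endothelial markers summed to 1.89 to 2.33 CPM in U2OS siCtrl, 5.50 to 6.04 in U2OS siINTS11, 1.76 to 2.23 in U2OS-AsiSI siCtrl and 6.03 to 6.87 in U2OS-AsiSI siINTS11. The 4 epithelial markers, carried by KRT8 and KRT18, summed to 84.8 to 90.7, 101 to 107, 93.3 to 103 and 124 to 136 CPM in the same order. These 3 sums moved with the siRNA, and the osteoblast and epithelial sums also with the line, as several genes below did. Their part in the results was not tested. In bulk libraries fewer cells of a kind and less RNA per cell cannot be told apart.

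The sequences just before RefSeq start sites were searched for the sites named above. RefSeq promoter windows were matched for 6 of the 8 genes, 10 windows in all, and not for EGR3 and NR4A2. In the 250 bases before a start, CArG boxes lay in 3 of the 10 windows, 1 each of EGR1, EGR2 and SRF, against 407 of 35116 such windows over all genes (1.16%). EGR1 had 2 boxes, 105 to 96 and 83 to 74 bases before its start. EGR2 had 1 box, 71 to 62 bases before the third of its starts, and SRF had 2 boxes, 30 to 21 and 10 to 1 bases before its start. The pentamer TGACG, the short form of the cAMP response element, was searched on both strands. It lay in 5 of the 10 windows, those of EGR1, EGR4 and NR4A3 and 1 each of EGR2 and SRF, against 7451 windows (21.2%) over all genes. Printed below, 5′ to 3′ on each gene's own strand, are stretches around those sites that overlap no annotated exon (RefSeq promoter table, GRCh38), with CArG boxes and TGACG or its reverse complement CGTCA in capitals.
EGR1, chr5:138465336-138465425, plus strand: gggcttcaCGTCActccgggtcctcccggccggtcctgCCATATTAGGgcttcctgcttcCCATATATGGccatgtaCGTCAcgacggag
EGR2, chr10:62816408-62816484, minus strand: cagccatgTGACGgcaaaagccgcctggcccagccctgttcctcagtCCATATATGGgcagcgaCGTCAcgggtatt
EGR4, chr2:73293706-73293733, minus strand: aacaacaaCGTCAcagctcgagctttcc
NR4A3, chr9:99821768-99821854, plus strand: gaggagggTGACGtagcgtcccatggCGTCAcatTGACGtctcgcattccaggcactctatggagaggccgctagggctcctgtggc
SRF, chr6:43171112-43171268, plus strand: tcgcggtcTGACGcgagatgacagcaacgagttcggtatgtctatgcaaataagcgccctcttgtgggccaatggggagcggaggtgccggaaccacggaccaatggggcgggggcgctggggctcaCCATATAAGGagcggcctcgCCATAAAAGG

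In the EGR1 stretch the 2 CArG boxes stand between 2 CGTCA pentamers. In EGR2 the 1 box stands between TGACG and CGTCA, pentamers on opposite strands. NR4A3 had 4 TGACG matches in its window, 3 of them in the printed stretch, and no CArG box. The full palindrome TGACGTCA, which holds TGACG within it, lay in 0 of the 10 windows, against 578 windows over all genes (1.65%). The EGR site GCGNGGGCG lay in the EGR1 window, 198 to 190 bases before the start, and in the SRF window, 49 to 41 bases before it, against 2955 windows (8.41%). The NR4A site AAAGGTCA lay in 0 of the 10, against 367 windows (1.05%). Neither NR4A1 window, before the starts at chr12:52022832 and chr12:52037715, held a match to any of these motifs. The rest of NR4A1, which ends at chr12:52059507, was not searched, so sites elsewhere in the gene are not covered. A match describes the letters only, and binding was not measured.

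**Figure D1:**
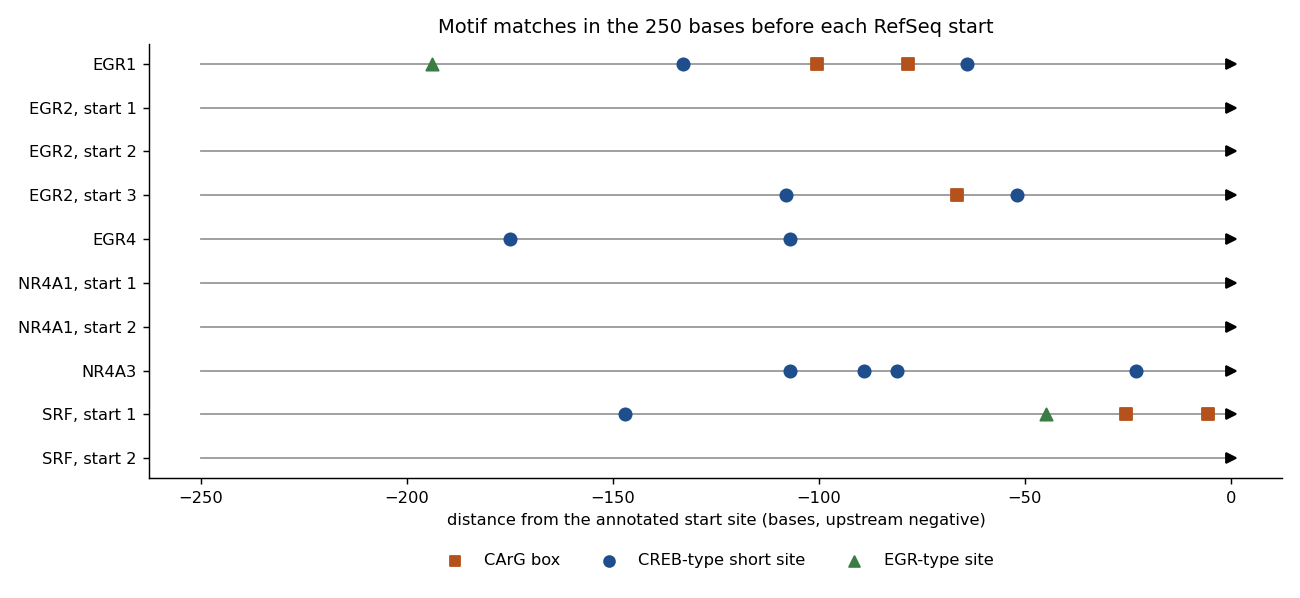
Motif matches in the 250 bases before each RefSeq start of the 6 genes with a promoter window (x axis, bases from the start, upstream negative), 1 line per start. Squares are CArG boxes, circles the CREB-type pentamer and triangles the EGR-type site. EGR1 and SRF each carry 2 squares, EGR2 carries 1 at the third start, and both NR4A1 lines are empty.

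SRF, the transcription factor that binds CArG boxes, lies at chr6:43171269-43181506 on the plus strand (GRCh38). Its nascent level in replicates 1 to 3 was 34.9, 33.0 and 31.0 CPM in U2OS siCtrl and 36.2, 34.7 and 32.2 CPM in U2OS siINTS11. In U2OS-AsiSI it was 36.9, 42.5 and 41.1 CPM under siCtrl and 41.4, 44.5 and 45.2 CPM under siINTS11. The siRNA groups overlapped within each line, whereas every U2OS-AsiSI library was above every U2OS library under the same siRNA. The latter held for 23% of tested genes under either siRNA. SRF was the most transcribed of the 8 genes after EGR1 per length, at 3.22 ± 0.19 CPM per kb (SD, n = 3) in U2OS siCtrl and 4.27 ± 0.20 (SD, n = 3) in U2OS-AsiSI siINTS11.

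EGR1, a short gene of 3.825 kb at chr5:138465479-138469303 on the plus strand, had the highest level per length of the 8. Its level in replicates 1 to 3 was 20.1, 16.9 and 18.1 CPM in U2OS siCtrl and 23.9, 22.5 and 22.9 CPM in U2OS siINTS11. In U2OS-AsiSI it was 33.3, 33.8 and 37.7 CPM under siCtrl and 47.7, 54.5 and 45.6 CPM under siINTS11. No 2 groups overlapped, and the order ran from U2OS siCtrl (18.4 ± 1.62 CPM, SD, n = 3) through U2OS siINTS11 (23.1 ± 0.74) and U2OS-AsiSI siCtrl (34.9 ± 2.42) to U2OS-AsiSI siINTS11 (49.3 ± 4.64). Per length these are 4.81 ± 0.42, 6.04 ± 0.19, 9.13 ± 0.63 and 12.9 ± 1.21 CPM per kb (SD, n = 3). Among all genes tested, ranges were apart and higher for 36.4% after siINTS11 in U2OS-AsiSI. Between the lines they were for 23% under either siRNA, and the share for siINTS11 in U2OS was not counted. The largest value among genes of at least 1 kb was 0.987 reads per base of gene. Whether the counts have a ceiling near 1 read per base was not tested. EGR1 reached 0.357 reads per base in 1 library and lay at percentile 99.5 of those genes by its mean, so such a ceiling would compress EGR1 most among the 8.

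EGR2, EGR3 and EGR4 were transcribed at a far lower level. U2OS libraries had 17, 30 and 8 EGR2 reads with siCtrl and 17, 20 and 22 with siINTS11. The U2OS-AsiSI libraries had 31, 44 and 25 with siCtrl and 43, 27 and 52 with siINTS11. On the CPM scale U2OS-AsiSI lay above U2OS under either siRNA, as it did for 23% of tested genes, while the siRNA groups overlapped in both lines. The deposited EGR2 model (chr10:62811996-62919900, minus strand) spans 107.905 kb, against 7.172 kb in RefSeq. Its level per length is understated if the reads fall within the RefSeq gene, which whole-span counts cannot show. The EGR2 changes given below are likewise those of the whole span. EGR3 (chr8:22687659-22693480, minus strand) had 1 to 8 reads in any library and EGR4 (chr2:73290929-73293701, minus strand) 0 to 8. Neither passed the count filter, so neither was tested. EGR3 summed to 5 and 12 reads over the 3 libraries of U2OS siCtrl and U2OS siINTS11 and to 9 and 15 in U2OS-AsiSI, and EGR4 to 4, 7, 10 and 17 in the same order. For both, the means of neighbouring groups in the order of levels did not differ beyond the spread of replicates, though for EGR4 every U2OS-AsiSI library was above every U2OS library under the same siRNA on the CPM scale, as 23% of tested genes were under either siRNA.

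NR4A1, the receptor also called Nur77, lies at chr12:52022832-52059507 on the plus strand. Its level in replicates 1 to 3 was 17.1, 17.3 and 15.5 CPM in U2OS siCtrl and 14.8, 14.5 and 13.3 CPM in U2OS siINTS11. In U2OS-AsiSI it was 24.0, 24.7 and 25.5 CPM under siCtrl and 24.5, 21.9 and 22.6 CPM under siINTS11. NR4A1 was the 1 gene of the 8 whose mean was not highest in U2OS-AsiSI siINTS11, with TMM or median-of-ratios scaling, whereas with library totals it was highest there (25.2 against 23.7 CPM under siCtrl). On the TMM scale its siRNA groups were apart in U2OS and overlapped in U2OS-AsiSI. NR4A2 (Nurr1), at chr2:156324437-156342348 on the minus strand, was at 7.72, 7.89 and 7.16 CPM in U2OS siCtrl and 11.1, 10.1 and 9.84 CPM in U2OS siINTS11. In U2OS-AsiSI, NR4A2 was at 8.11, 8.83 and 9.83 CPM under siCtrl and 10.4, 11.9 and 11.8 CPM under siINTS11. For NR4A2 the siRNA groups were apart in both lines, and the 2 siINTS11 groups overlapped each other. NR4A3 (NOR1), at chr9:99821855-99866891 on the plus strand, was at 5.25, 6.73 and 5.01 CPM in U2OS siCtrl and 8.85, 8.31 and 8.30 CPM in U2OS siINTS11. In U2OS-AsiSI, NR4A3 was at 7.67, 6.86 and 6.10 CPM under siCtrl and 11.9, 10.7 and 10.2 CPM under siINTS11. For NR4A3 the 2 siCtrl groups overlapped, and both lay below both siINTS11 groups, which were apart from each other. Of all genes tested, 36.4% had ranges apart and higher after siINTS11 in U2OS-AsiSI, and 23% between the lines under either siRNA. The shares for siINTS11 in U2OS, and for ranges apart and lower, were not counted.

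Per length, NR4A1 was at 0.45 ± 0.03 and NR4A2 at 0.42 ± 0.02 CPM per kb (SD, n = 3) in U2OS siCtrl, and NR4A3 was lower at 0.13 ± 0.02. The NR4A2 model spans 17.912 kb against 8.285 kb in RefSeq, so its level per length is understated if the reads fall within the RefSeq gene. EGR3, NR4A1 and NR4A3 overlap antisense genes: AC055854.1 with 76 to 162 reads per library, NR4A1AS with 0 to 1 and STX17-AS1 with 51 to 105. EGR3, with 1 to 8 reads, was below AC055854.1 in 12 of 12 libraries. NR4A3, which lies wholly inside STX17-AS1, had 142 to 342 reads and was above STX17-AS1 in 12 of 12 libraries. The libraries were made with a directional kit, but the strand setting of the counting is not given in the sources used here, so reads of NR4A1, NR4A3 and EGR3 and of their antisense partners cannot be told apart with certainty.

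**Figure D2:**
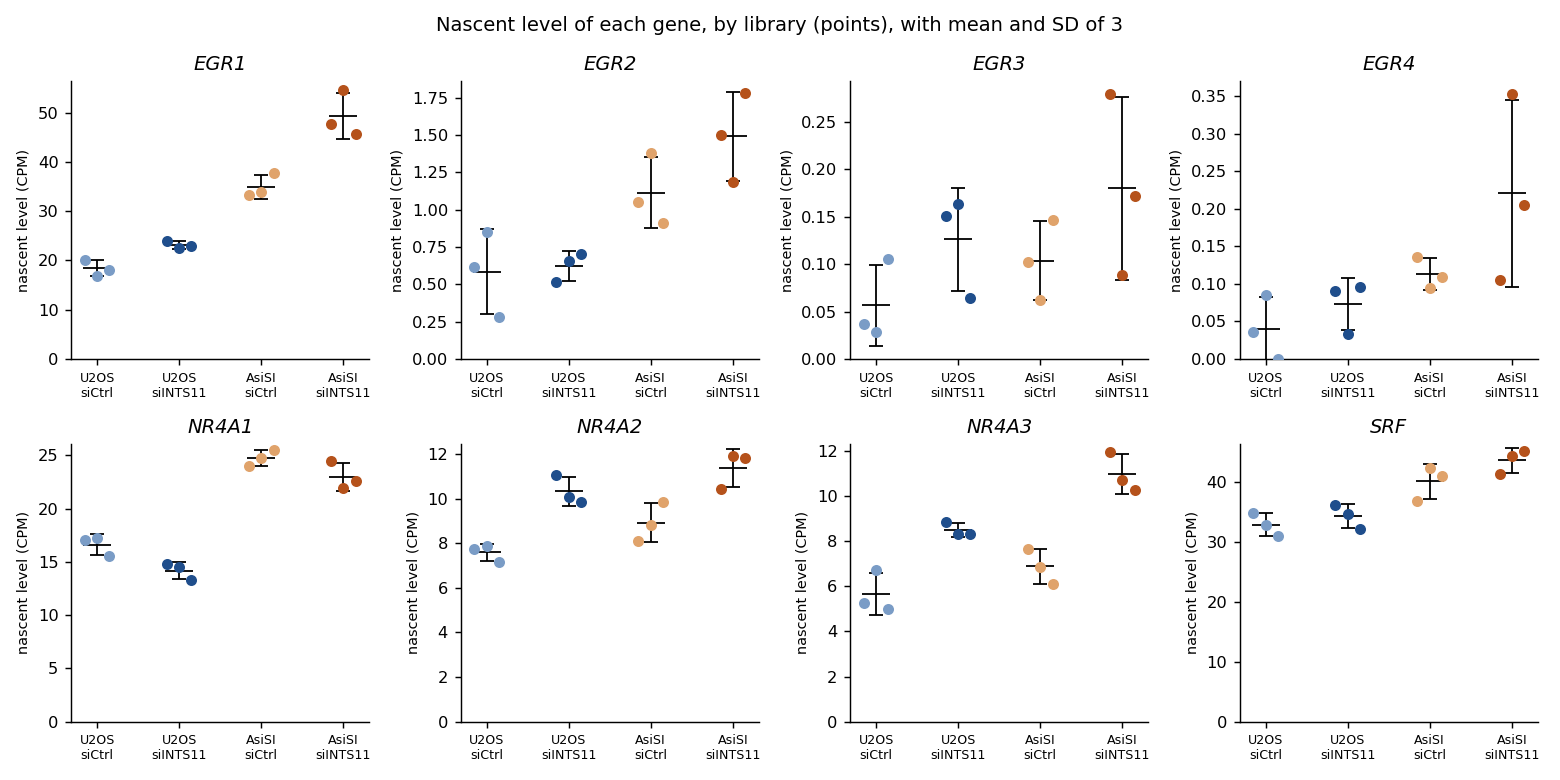
Nascent level of each of the 8 genes (y axis, CPM scaled by TMM, from 0, with a scale of its own per gene) in the 4 groups, 1 point per library, with bars at the mean and SD of 3. EGR1 steps up from 18.4 to 49.3 CPM with no overlap between groups, NR4A1 stands higher in U2OS-AsiSI under either siRNA, and EGR3 and EGR4 rest on 0 to 8 reads per library.

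The comparison of siINTS11 with siCtrl asked whether nascent transcription of these genes differed after the INTS11 siRNA. In U2OS-AsiSI, EGR1, NR4A2, NR4A3 and SRF rose, 4 of the 6 tested, and none fell. Over all genes 68% passed in this comparison (35.4% higher and 32.6% lower), so the share of the 6 that passed is close to the background and is not a result about these genes. NR4A3 rose most, by 0.68 on the log2 scale (SE 0.09, 1.60-fold, edgeR adjusted p = 1.76e-07). EGR1 rose by 0.50 (SE 0.06, 1.41-fold, adjusted p = 1.7e-08) and NR4A2 by 0.35 (SE 0.09, 1.28-fold, adjusted p = 0.000628). By p, EGR1 ranked 3263, NR4A3 4237 and NR4A2 9211 of the 20441 genes tested. For each of these 3 genes all siINTS11 libraries were above all siCtrl libraries, as they were for 36.4% of all genes tested. The rise of SRF was 0.12 (SE 0.06, edgeR adjusted p = 0.048), a call that was lost when U2OS-AsiSI siCtrl replicate 1 or 3 or siINTS11 replicate 2 or 3 was left out (0.072, 0.14, 0.11 and 0.097, edgeR adjusted p from 0.0532 to 0.294) and with DESeq2 (0.089, adjusted p = 0.306). EGR2 was at 0.43 (SE 0.20, adjusted p = 0.0616) and passed without siCtrl replicate 2 (0.62, edgeR adjusted p = 0.0195) or siINTS11 replicate 2 (0.55, edgeR adjusted p = 0.0248), on 25 to 52 reads per library. With library totals EGR2 passed as well (0.62, edgeR adjusted p = 0.00982). NR4A1 did not pass, at -0.097 (SE 0.06, edgeR adjusted p = 0.153), and at 0.093 with library totals. The median of the 6 was 0.39, against 0.031 over the 20441 genes tested.

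In U2OS, EGR1, NR4A2 and NR4A3 rose and NR4A1 fell, 4 of the 6 tested, where 66.9% of all genes passed (34.5% higher and 32.4% lower), again close to the background. NR4A3 again had the largest rise of the 6, 0.54 (SE 0.10, 1.45-fold, edgeR adjusted p = 7.56e-06), followed by NR4A2 with 0.41 (SE 0.08, 1.33-fold, adjusted p = 4.42e-05) and EGR1 with 0.31 (SE 0.06, 1.24-fold, adjusted p = 5.77e-05). NR4A1 fell by 0.26 (SE 0.07, edgeR adjusted p = 0.00125). By p, NR4A3 ranked 6561, NR4A2 7549, EGR1 7705 and NR4A1 9903 of the 20687 genes tested. With library totals NR4A1 was at -0.061 (edgeR adjusted p = 0.491) and SRF at 0.23 (edgeR adjusted p = 0.000614), because that scaling moved the median over all genes from 0.019 to 0.22. On the main scale SRF was at 0.032 (SE 0.05, adjusted p = 0.611) and EGR2, on 8 to 30 reads per library, at 0.016 (SE 0.29, adjusted p = 0.965). The normal 95% interval of EGR2 ran from -0.56 to 0.59, so a change within it was not excluded. The median of the 6 was 0.17, against 0.019 over 20687 genes.

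The siINTS11 effect did not pass a test of the difference between the lines for any of the 6 genes. In the interaction of siRNA and line over 12 libraries, edgeR called 0 of the 6, 0 had an unadjusted p under 0.05 and DESeq2 called 0, while 3.87% of all genes passed (0.762% higher and 3.1% lower). The differences, U2OS-AsiSI minus U2OS, were 0.16 for EGR1 (SE 0.09, 95% interval -0.025 to 0.34), 0.13 for NR4A1 (SE 0.09, -0.046 to 0.30), -0.093 for NR4A2 (SE 0.12, -0.33 to 0.14), 0.10 for NR4A3 (SE 0.14, -0.18 to 0.38) and 0.058 for SRF (SE 0.08, -0.10 to 0.22). EGR2, with 0.38 (SE 0.38, -0.36 to 1.12), had the widest interval. These intervals do not show that the lines responded alike.

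**Figure D3:**
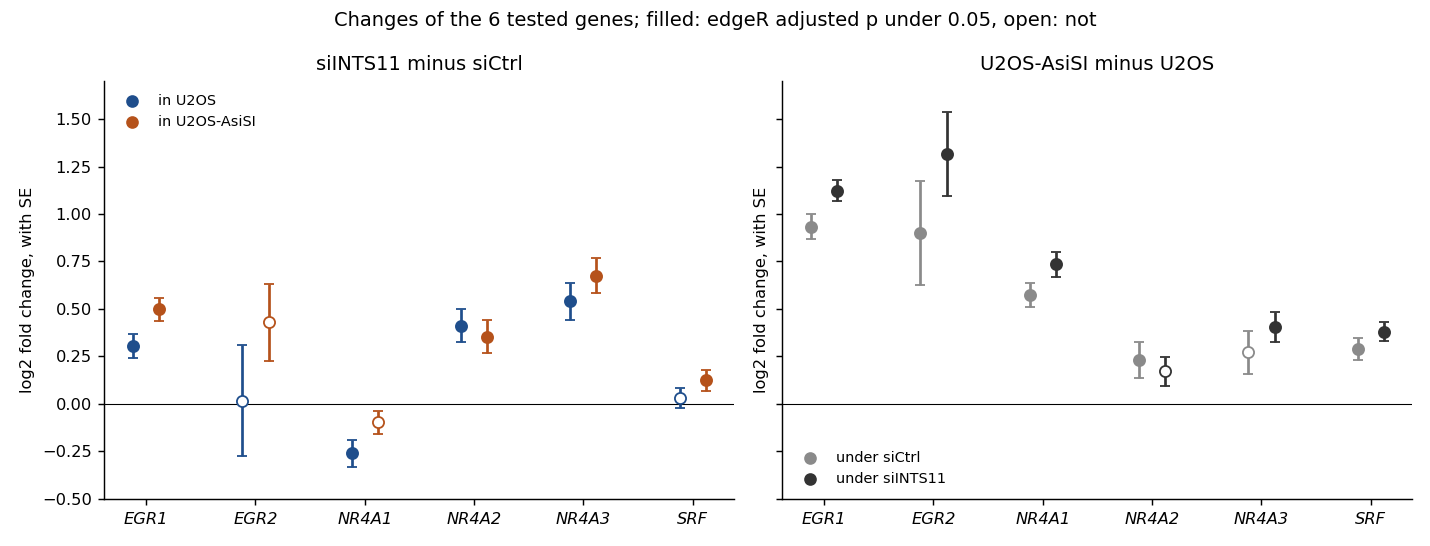
Log2 fold changes of the 6 tested genes with their SE, for siINTS11 minus siCtrl in each line (left) and for U2OS-AsiSI minus U2OS under each siRNA (right). Filled points have an edgeR adjusted p under 0.05. On the left NR4A3 is highest in either line and NR4A1 is the 1 gene below 0, and on the right all points are above 0, with EGR1 and EGR2 highest.

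A ratio of 2 genes' counts within a library needs no scaling between libraries, and ratios among these genes were compared between the groups. The log2 ratio of NR4A3 to NR4A1 was -1.57 ± 0.18 in U2OS siCtrl and -0.74 ± 0.06 in U2OS siINTS11 (SD, n = 3). In U2OS-AsiSI the same ratio was -1.85 ± 0.21 and -1.07 ± 0.06 (SD, n = 3). The siINTS11 libraries were above the siCtrl libraries in both lines, by 0.83 and 0.78. NR4A2 over NR4A1 was also apart, by 0.67 in U2OS and 0.46 in U2OS-AsiSI, whereas NR4A3 over NR4A2 overlapped between the siRNAs in both lines. EGR1 over SRF, 2 genes with a pair of CArG boxes each, was -0.84 ± 0.10 and -0.57 ± 0.07 in U2OS under siCtrl and siINTS11, and -0.20 ± 0.11 and 0.17 ± 0.14 in U2OS-AsiSI (SD, n = 3). All 4 groups were apart in this ratio. NR4A1 over SRF differed between siINTS11 and siCtrl by -0.29 in U2OS, where the groups were apart, and by -0.23 in U2OS-AsiSI, where they overlapped. With 3 libraries against 3 the smallest p of the two-sided exact permutation test is 0.1, or 0.133 adjusted over the 32 tests of 8 ratios in 4 comparisons, so none could pass. The ratios were chosen after their values had been seen, and how many other pairs of genes lie apart was not counted.

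**Figure D4:**
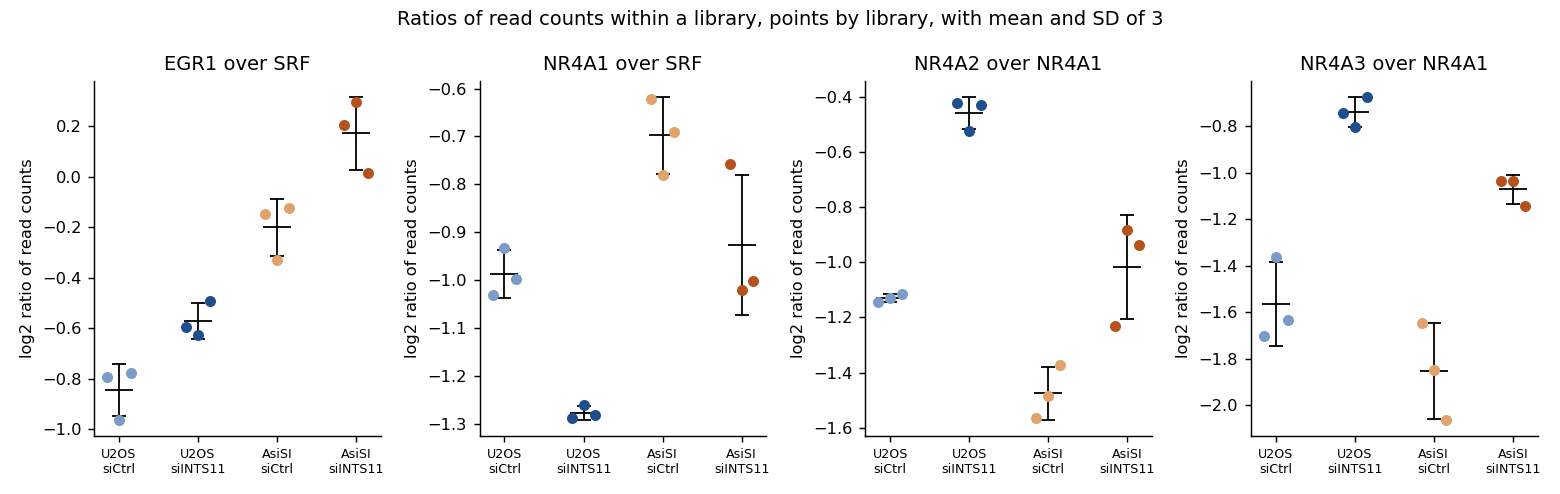
Log2 ratio of read counts within a library (y axis, not from 0) for 4 pairs of genes, 1 point per library, with bars at the mean and SD of 3. EGR1 over SRF climbs over the 4 groups without overlap, and NR4A2 and NR4A3 over NR4A1 are higher under siINTS11 in either line.

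The comparison of U2OS-AsiSI with U2OS took cells with AsiSI-ER and OHT against U2OS cells, for which no OHT is given. Under siCtrl, EGR1, EGR2, NR4A1, NR4A2 and SRF were higher in U2OS-AsiSI, 5 of the 6 tested and none lower, where 34.9% of all genes passed (17.8% higher and 17.2% lower). EGR1 was 1.91-fold higher, 0.93 on the log2 scale (SE 0.07, edgeR adjusted p = 1.73e-12), and ranked 15 of 19935 genes by p. NR4A1 exceeded its U2OS level by 0.57 (SE 0.06, 1.49-fold, adjusted p = 2.93e-08), SRF by 0.29 (SE 0.06, 1.22-fold, adjusted p = 0.000203) and EGR2 by 0.90 (SE 0.27, edgeR adjusted p = 0.0102). For all 5 genes every U2OS-AsiSI library was above every U2OS library, which held for 23% of all genes tested. The EGR2 call was lost without U2OS siCtrl replicate 3 (0.60, edgeR adjusted p = 0.0819) or U2OS-AsiSI siCtrl replicate 2 (0.71, edgeR adjusted p = 0.0843). The call of NR4A2, 0.23 higher (SE 0.09, edgeR adjusted p = 0.0491), was lost in 5 of the 6 fits that left out 1 library. Those were U2OS siCtrl replicates 1, 2 and 3 and U2OS-AsiSI siCtrl replicates 2 and 3, with 0.16 to 0.27 and edgeR adjusted p from 0.053 to 0.253. NR4A3 did not pass, at 0.27 (SE 0.11, edgeR adjusted p = 0.0599), and did so without U2OS siCtrl replicate 2 (0.43, edgeR adjusted p = 0.00724) or U2OS-AsiSI siCtrl replicate 3 (0.35, edgeR adjusted p = 0.0237). The number called was thus 3 without U2OS siCtrl replicate 3, without U2OS-AsiSI siCtrl replicate 2 and with DESeq2. The median of the 6 was 0.43, against 0.0087 over all genes.

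Under siINTS11, EGR1, EGR2, NR4A1, NR4A3 and SRF were higher in U2OS-AsiSI, again 5 of the 6 and none lower, where 43.6% of all genes passed (22.2% higher and 21.4% lower). EGR1 was 2.18-fold higher, 1.12 on the log2 scale (SE 0.06, edgeR adjusted p = 4.31e-19), and ranked 3 of 20802 genes by p. EGR2 exceeded its U2OS level by 1.31 (SE 0.22, 2.49-fold, adjusted p = 4.6e-06) and NR4A1 by 0.74 (SE 0.06, 1.66-fold, adjusted p = 2.85e-12). The excess was 0.41 for NR4A3 (SE 0.08, edgeR adjusted p = 7.41e-05) and 0.38 for SRF (SE 0.05, edgeR adjusted p = 1.06e-07). For these 5 genes, too, every U2OS-AsiSI library was the higher, against 23% of all genes. NR4A2 was at 0.17 (SE 0.08, edgeR adjusted p = 0.0757), and passed without U2OS siINTS11 replicate 1 (0.23, edgeR adjusted p = 0.0392) or U2OS-AsiSI siINTS11 replicate 1 (0.24, edgeR adjusted p = 0.0207). The median of the 6 was 0.57, against 0.011 over all genes. The comparisons of siRNAs and of lines share libraries, so the values of 1 gene across them are not independent.

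The genes around these factors were counted in lists, beside which stand the shares over all genes after siINTS11, 68% called in U2OS-AsiSI (35.4% higher, 32.6% lower) and 66.9% in U2OS (34.5% higher, 32.4% lower). Of 7 SRF cofactors, 5 were called in each line, close to that share: 1 rose and 4 fell in each line, with medians of -0.25 in U2OS-AsiSI and -0.10 in U2OS, where library totals gave 2 and 2 and a median of 0.096. The SRF coactivators MRTFA and MRTFB fell by 0.32 and 0.31 in U2OS-AsiSI (SE 0.05 each, edgeR adjusted p = 3.08e-07 and 4.42e-07), as did SCAI, an inhibitor of MRTFA, by 0.48 (SE 0.05, edgeR adjusted p = 4.93e-09). ELK3, a ternary complex factor on CArG boxes, rose by 0.34 in U2OS-AsiSI (SE 0.05, edgeR adjusted p = 1.13e-07). In U2OS the values were -0.33 for MRTFA, -0.25 for MRTFB, -0.40 for SCAI and 0.30 for ELK3 (SE 0.04 to 0.05, edgeR adjusted p of 7.24e-07 or less). Of 20 genes of the ERK pathway, 2 rose and 11 fell in U2OS-AsiSI (median -0.15) and 1 rose and 13 fell in U2OS (median -0.20), so that the share called was again close to that over all genes. With library totals 5 rose and 7 fell in U2OS-AsiSI (median 0.035) and 4 rose and 7 fell in U2OS (median -0.0014). The receptor EGFR fell by 0.66 in U2OS-AsiSI and by 0.87 in U2OS, the Ras exchange factor SOS2 by 0.72 and 0.68 and the kinase BRAF by 0.51 and 0.47 (SE 0.04 to 0.05, edgeR adjusted p of 1.02e-10 or less). Of 10 genes of the cAMP route, 1 rose and 7 fell in U2OS-AsiSI and 1 rose and 5 fell in U2OS, beside 68% and 66.9% of all genes called, with medians of -0.15 and -0.13, whereas library totals gave 3 and 2, and 4 and 4, with medians of 0.036 and 0.073. PRKACB, a catalytic subunit of protein kinase A, fell by 1.29 and 1.28 (SE 0.05 and 0.04, edgeR adjusted p = 2.32e-19 and 4.41e-28), and CREB1 by 0.26 and 0.28 (SE 0.05 and 0.04, edgeR adjusted p = 4.26e-05 and 2.25e-07). CREB's relative ATF1 rose by 0.14 in U2OS-AsiSI and by 0.20 in U2OS (SE 0.05 and 0.04, edgeR adjusted p = 0.00777 and 2.14e-05).

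Other immediate early genes were higher more often than lower in each comparison of siRNAs and of lines. Of 14 tested, 12 rose and 0 fell after siINTS11 in U2OS-AsiSI (median 0.36), and 7 rose and 0 fell in U2OS (median 0.21), where 35.4% and 34.5% of all genes rose. FOS rose by 0.89 and 1.00 in the 2 lines (SE 0.08 and 0.10, edgeR adjusted p = 2.29e-11 and 1.89e-10) and the RNA decay factor ZFP36 by 0.85 and 0.86 (SE 0.07 and 0.08, edgeR adjusted p = 1.09e-11 and 6.84e-12), beside 0.50 and 0.31 for EGR1. Between the lines 10 were higher and 1 lower in U2OS-AsiSI under siCtrl (median 0.32), and 13 higher and 0 lower under siINTS11 (median 0.49), where 17.8% and 22.2% of all genes were higher. In the siCtrl comparison the 0.93 of EGR1 stood beside 0.96 for FOS (SE 0.10, edgeR adjusted p = 1.46e-08), 0.86 for BTG2, an antiproliferative factor (SE 0.06, edgeR adjusted p = 1.5e-12), and 0.64 for FOSL1, a FOS relative (SE 0.06, edgeR adjusted p = 3.13e-09). In the test of the difference between lines, BTG2 was the 1 gene of this list that passed (-0.39, SE 0.09, edgeR adjusted p = 0.0103). Of 15 cytoskeletal targets of MRTF and SRF, 9 rose and 4 fell after siINTS11 in U2OS-AsiSI (median 0.20), and 2 rose and 6 fell in U2OS (median -0.087), or 5 and 3 with library totals (median 0.11), where 68% and 66.9% of all genes were called in the 2 lines. TPM1, a tropomyosin, was the 1 gene of these that passed the test of the difference (0.30, SE 0.07, edgeR adjusted p = 0.0123), and the vinculin gene VCL fell in both lines, by 0.34 and 0.48 (SE 0.05 and 0.04, edgeR adjusted p = 9.67e-08 and 3.22e-14). Under siINTS11, 12 of the 15 were higher in U2OS-AsiSI and 0 lower, where 22.2% of all genes were higher. Under siCtrl 5 were higher and 1 lower, where 17.8% of all genes were higher.

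Of 5 listed partners of EGR and NR4A proteins, RXRG did not pass the count filter and RXRB was called in no comparison. NAB2, a corepressor of EGR proteins and itself an EGR target gene, was called higher, as EGR1 was, in 4 comparisons that share libraries. In those, in the order given next, 35.4%, 34.5%, 17.8% and 22.2% of all genes were called higher. NAB2 rose by 0.28 after siINTS11 in U2OS-AsiSI (SE 0.06, edgeR adjusted p = 0.000238) and by 0.47 in U2OS (SE 0.07, edgeR adjusted p = 4.98e-07). It stood above U2OS in U2OS-AsiSI by 0.77 under siCtrl (SE 0.08, edgeR adjusted p = 2.32e-09) and by 0.57 under siINTS11 (SE 0.06, edgeR adjusted p = 4.97e-10). A link between NAB2 and EGR1 was not tested. NAB1 fell after siINTS11 by 0.13 and 0.11 (SE 0.05 and 0.04, edgeR adjusted p = 0.0143 and 0.027). Between the lines NAB1 was higher in U2OS-AsiSI, by 0.16 under siCtrl and 0.13 under siINTS11 (SE 0.05 each, edgeR adjusted p = 0.00725 and 0.0221). RXRA, a retinoid X receptor, rose after siINTS11 by 0.40 in U2OS-AsiSI and 0.16 in U2OS (SE 0.05 and 0.04, edgeR adjusted p = 1.59e-08 and 0.000551). Its difference between the lines was -0.35 under siCtrl (SE 0.04, edgeR adjusted p = 2.06e-07) and -0.11 under siINTS11 (SE 0.04, edgeR adjusted p = 0.035).

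**Figure D5:**
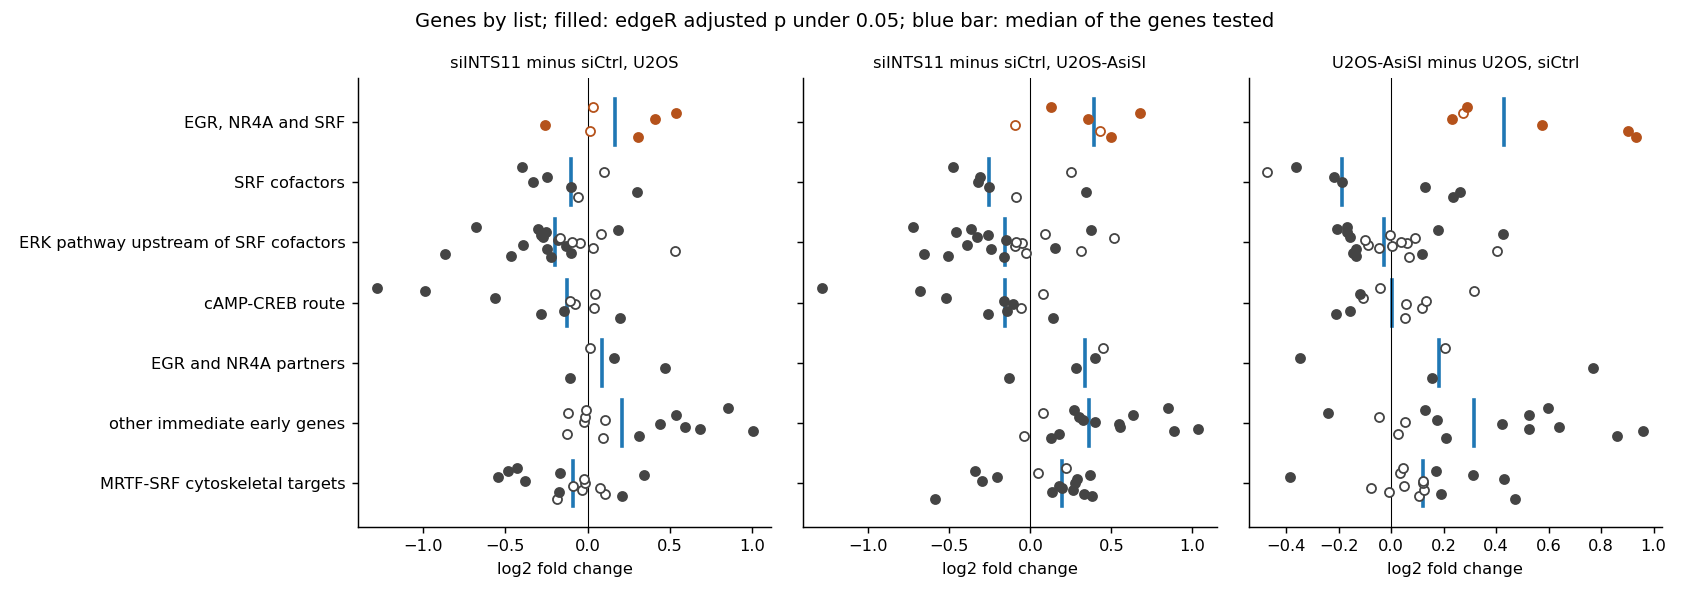
Log2 fold changes (x axis, with a scale of its own for the right panel) of the EGR, NR4A and SRF genes and of the 6 lists of related genes, 1 point per tested gene, for siINTS11 minus siCtrl in U2OS and in U2OS-AsiSI and for U2OS-AsiSI minus U2OS under siCtrl. Filled points have an edgeR adjusted p under 0.05 and blue bars are medians, which lie at 0.17, 0.39 and 0.43 for the top row and below 0 for the ERK list in each panel.

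The genes whose log2 CPM followed each factor most closely over the 12 libraries were ranked by Pearson's r among 13552 genes with a mean of at least 100 reads. The libraries form 4 groups, so r mostly reflects the 4 group means and is a description. EGR1 was most like CIAO2B (0.988), SRM (0.987) and TIMP1 (0.986), and SRF most like AP5B1 (0.974), CCDC124 (0.971) and CLUH (0.97). EGR2 was most like TOR2A (0.968), COL22A1 (0.919) and FAHD2B (0.91). NR4A1 was most like RBM19 (0.978), RELA (0.973) and COL13A1 (0.972). The other two receptors had other neighbours, NR4A2 with RPP38 (0.985), NKIRAS2 (0.984) and AP002813.1 (0.981), and NR4A3 with AC009065.5 (0.966), LPAL2 (0.964) and BMP6 (0.962). None of the 3 nearest genes of a factor was shared with another.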

How the data were processed

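TT-seq read counts per gene were deposited by the authors in 6 tables of 60583 genes, each with 2 count columns that were matched to samples by the labels, with 0 columns left over. Values are raw counts over the whole gene span, per the file headers, which have the layout of featureCounts. The submitters' processing notes name Trimmomatic 0.36, STAR 2.7, deepTools, featureCounts and hg38. How strand and duplicate reads were treated, and the annotation release, are not given in the sources used here. Per the labels' protocols, RNA was spiked with labelled yeast RNA. Scaling by the spike-in was not used here, so total transcription was not compared.

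Each comparison was fitted on the whole table with edgeR 4.0.16 in R 4.3.3 (filterByExpr, TMM scaling, robust quasi-likelihood fit and test, two-sided), on the 6 libraries compared, or on all 12 for the interaction of siRNA and line. Adjustment was by Benjamini-Hochberg over all genes tested, with a threshold of 0.05. An SE is the size of the log2 fold change divided by the square root of its F statistic, and intervals are normal. CPM are counts per 1000000 of the library total times its TMM factor over 12 libraries, and log2 CPM used a prior count of 2. Tests were run on simulated counts in which 194 to 196 genes per comparison changed 2-fold. Of these genes 81.4% to 92.9% were recovered, and 4.24% to 6.28% of the calls were false. Far more genes were called after siINTS11 in the real data, a setting that the simulation does not cover. The labels do not say that replicates were separate cultures, so p-values measure only the spread between these libraries. Counts of replicates differed beyond sampling noise in each group (chi-square per degree of freedom 1.84 to 3.06). Without molecular identifiers, reads need not be independent molecules.

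Genes named are the 8 chosen genes, INTS11, up to 4 genes per list and comparison with the smallest adjusted p among those past the threshold, and for each tested gene the 3 others most like it over the 12 libraries. Untested list members with low counts are named as such. The members and lists were chosen with earlier results of these data known. Alternatives were median-of-ratios scaling, library totals, DESeq2 1.42.0, leaving out each library, no filter on counts or a stricter one (mean of 50), a block for the replicate number, thinning to the smallest total, a correction for a supposed ceiling of 1 read per base and 1 fit of all 12 libraries. Exact permutation tests used scipy 1.17.1, and figures matplotlib 3.10.9. Promoter windows came from RefSeq (GRCh38), and exons from GENCODE.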

Additional observations from a re-analysis of the deposited data

How the results depend on the processing

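The numbers of the 6 tested genes called stayed within 1.5 times of the values reported under every alternative run, with 1 exception. For U2OS-AsiSI against U2OS under siCtrl, 5 were called, but 3 with DESeq2, 3 with libraries thinned to the smallest total and 3 to 5 with 1 library left out. With 1 library left out, the numbers were 3 to 5 for siINTS11 in U2OS-AsiSI, 4 in U2OS, 0 for the difference between lines and 5 to 6 for the lines under siINTS11. Leaving out 1 library turned the direction of values that did not pass: EGR2 in U2OS (-0.29 to 0.45), SRF in U2OS (-0.0068 to 0.080), and the differences between lines of EGR2 (-0.044 to 0.75), NR4A2 (-0.16 to 0.00155), NR4A3 (-0.058 to 0.24) and SRF (-0.00057 to 0.15). Library totals turned NR4A1 in U2OS-AsiSI to 0.093 (edgeR adjusted p = 0.196) and INTS11 there to 0.062. The cause was not tested beyond the shift of all genes that this scaling makes.

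Over all genes, library totals moved the share of calls that were higher from 52.1% to 72.4% for siINTS11 in U2OS-AsiSI, from 51.6% to 74.3% in U2OS, from 50.9% to 67.4% between the lines under siCtrl and from 51.0% to 62.8% under siINTS11. The difference between lines called 832 genes, 19.7% of them higher, against 447 with median-of-ratios scaling (39.6% higher), 589 with library totals (29.5% higher), 531 with the replicate block, 394 with DESeq2 and 505 thinned. The SRF call in U2OS-AsiSI was also lost with median-of-ratios scaling, without a count filter and in 1 fit of all 12 libraries (edgeR adjusted p = 0.0962, 0.106 and 0.0596). Corrected for a supposed ceiling of 1 read per base, EGR1 was at 0.57 and 0.34 after siINTS11 in U2OS-AsiSI and U2OS and at 1.04 and 1.27 between the lines, and no call of the 6 genes changed.

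Whether the replicate numbers pair the libraries could not be decided from 3 pairs per comparison. Deviations of same-numbered U2OS-AsiSI libraries of the 2 siRNAs correlated at 0.14, 0.0070 and 0.016. Those of differently numbered libraries correlated at -0.099 to 0.079. In U2OS the same-numbered libraries of the 2 siRNAs correlated at -0.027, -0.045 and 0.027. Between the lines same-numbered libraries correlated at -0.11, 0.023 and -0.072 under siCtrl, and at 0.031, 0.030 and -0.011 under siINTS11. With the replicate block, 4 genes were called for siINTS11 in U2OS-AsiSI, 4 in U2OS, 0 for the difference, and 5 between the lines under either siRNA. NR4A2 then had an edgeR adjusted p of 0.0658 and NR4A3 of 0.0463 between the lines under siCtrl. Depth limits EGR3 and EGR4, with 0 to 8 reads, and EGR2, with 8 to 52.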
